A study of Mus musculus with 12 samples.

Results

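Integrins and laminins are the main receptors and one main class of ligands by which a fibroblast holds on to its matrix. They were taken here as every gene of the expression table whose name is that of an integrin alpha subunit, an integrin beta subunit or a laminin chain. The rule used names alone and gave 37 genes of 21881: 18 alpha subunits, 8 beta subunits and 11 laminin chains. Of these, 20 were expressed, meaning an FPKM (a fragment count divided by transcript length and by the mapped fragments of the library) of at least 1 in at least 3 libraries, namely 10 alpha subunits, 5 beta subunits and 5 laminin chains. In the other 17 genes no library reached 1 FPKM, with 0.947 as the highest value, and they were not tested.

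An integrin is a membrane receptor made of an alpha and a beta subunit. The alpha subunit largely sets the ligand (collagen, laminin, or proteins with the RGD peptide such as fibronectin and vitronectin), and the beta subunit tail is held to actin through talin, kindlin and other adaptors. A laminin is a secreted trimer of an alpha, a beta and a gamma chain that builds the sheet-like scaffold of basement membranes. In marrow stroma these molecules anchor the cells and offer an adhesive surface to blood precursors.

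RNA came from immortalized monoclonal lines of C57BL/6 mouse mesenchymal stem cells, a fibroblast type of adult bone marrow. The 4 groups of 3 libraries were Dicer f/f cells with a nontargeting control siRNA (WT_siCtrl), Dicer -/- cells with that control siRNA (KO_siCtrl), Dicer -/- cells with a synthetic let-7g duplex (KO_let-7g) and Dicer -/- cells with an siRNA against Nr6a1 (KO_siNr6a1). All cells were harvested 48 h after transfection at 20 nM. The number of clonal lines is not in the labels, so genotype and line cannot be told apart. Nor is it stated that libraries came from separate cultures: the p-values reflect library-to-library spread alone, and that spread may be technical.

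Read totals are not in the table. Relative depth, read from values that stand for 1 read and set to 1 for the shallowest library, was 1.11 to 1.29 for WT_siCtrl, 1 to 1.31 for KO_siCtrl, 1.34 to 1.82 for KO_let-7g and 1.13 to 1.56 for KO_siNr6a1. The targeted gene Nr6a1 stood at 0.945 to 1.25 FPKM for WT_siCtrl, 10.2 to 12.6 for KO_siCtrl, 3.39 to 5.38 for KO_let-7g and 3.31 to 4.30 for KO_siNr6a1. Dicer1, measured over the whole gene and not over the deleted part, stood at 5.58 to 8.24 FPKM in WT_siCtrl and at 2.37 to 4.06 in the Dicer -/- groups. Of 10 mesenchymal markers 8 reached 1 FPKM in each group. Among them Vim (1071 to 1740 FPKM), Cd44 (42.1 to 111), Eng (30.0 to 62.7) and Pdgfrb (34.7 to 73.2) were present in every library. Lepr stayed at 0.0916 to 0.787 FPKM, and Thy1 was listed at 0 in 11 of 12 libraries. Of 9 white blood cell markers Cd74 (7.48 to 62.9 FPKM) and Cd68 (1.12 to 6.87) were present, while Ptprc and Cd3e reached at most 0.0177 and 0.136. No endothelial marker of 6 reached 1 FPKM in a group. Of 5 muscle markers Acta1 (17.0 to 54.4 FPKM) and Des (1.60 to 4.56) were present, while Myod1 and Myog reached at most 0.00359 and 0.0383. Of 4 platelet and megakaryocyte markers Gp1bb and Ppbp reached up to 5.59 and 4.56 FPKM, and Gp9 at most 0.0406. Of 5 Schwann and neural markers Tubb3 (1.49 to 8.13 FPKM) was present, and Sox10 reached at most 0.0427. Of 8 epithelial markers Krt19 and Krt8 reached up to 2.50 and 1.55 FPKM and Cdh1 at most 0.102, with a summed level of 1.88 to 2.87 for WT_siCtrl, 1.82 to 3.19 for KO_siCtrl, 0.757 to 1.34 for KO_let-7g and 0.457 to 0.664 for KO_siNr6a1.

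let-7g is shown because its seed, bases 2 to 8 in capitals, defines the sites searched for in the 3′ UTRs of the integrin and laminin genes. The mature sequence is that of RefSeq (build GRCm38.p6).
mmu-let-7g-5p: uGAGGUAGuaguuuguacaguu
The longest annotated 3′ UTR of each gene (GENCODE M21, GRCm38) was searched on the sense strand for CTACCTCA, which pairs with the seed and has an A after it, and for CTACCTC, which pairs with the seed and lies within the longer word. None of the 20 expressed genes held the longer word, which 3.63% of 10222 tested genes with a 3′ UTR held, and 2 (10%) held the shorter one, against 10.4%. These were Itgb3, with a match that starts at base 1287 of a 3331-base UTR, and Itgad, at base 128 of 329. The 2 sites are printed with the match in capitals.
Itgb3: cttgtgtgtatCTACCTCttcggtgtctt
Itgad: gaaatgatgccCTACCTCctgagctggga
The word TACCTC, which pairs with bases 2 to 7 only and lies within both longer words, was found in 5 of the 20 (25%, against 26.4% of tested genes): 3 times in Itgb3, 2 times in Itgav, and once each in Itgad, Itga1 and Itga9. Of these only the match in Itga1 was followed by an A, which gives TACCTCA. Of the genes called lower in KO_let-7g against KO_siCtrl, Itga3, Itga5, Itga10, Itga11, Itgb5, Itgb7 and Lamb1 did not hold TACCTC. Itgad, Itga1 and Itga9, which held it, were not called there. A match describes the sequence and does not show that the site is used.

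**Figure D1:**
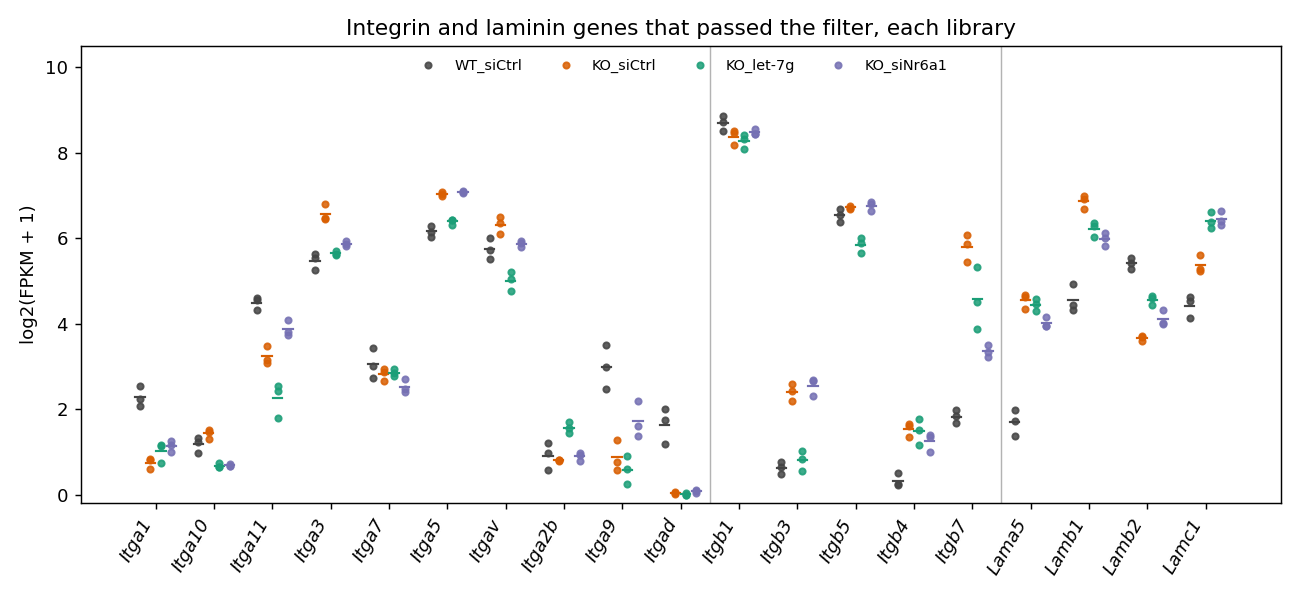
Level of the expressed integrin alpha subunits (left block), beta subunits (middle) and laminin chains (right) described here as log2(FPKM + 1); points are libraries (3 per group, colours give the group) and short lines are group means. Itgb1 lies above all others, the Itgb7, Lama5 and Lamb1 points of WT_siCtrl lie below those of the 3 Dicer -/- groups, and the Lamb2 points of WT_siCtrl lie above them.

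The first question is how cells without Dicer (KO_siCtrl) differ from those with it (WT_siCtrl). RNA levels of both integrin subunits and laminin chains differed, and protein is not in these data. The beta subunits Itgb7, Itgb3 and Itgb4 and the laminin chains Lama5 and Lamb1 were 5.05 to 21.6 times as high in mean FPKM in KO_siCtrl. The collagen receptor subunits Itga1 and Itga11, the alpha subunit Itga9 and the laminin chain Lamb2 were lower. Of the 20 genes tested, 10 rose and 6 fell by limma at an adjusted p under 0.05. Among all 11801 genes tested 54.3% were called, 29.1% higher and 25.2% lower. The median log2 fold change of the 20 was 0.41 beside 0.04 over all genes tested. Library values of the groups did not overlap in 17 of the 20, beside 57.2% of all genes. Because 8 of the 20 did not reach 1 FPKM in every library, some passed the filter through the group where they are high. Itgb3 and Itgb4 reached it in no WT_siCtrl library, and Itga1 in no KO_siCtrl library. The shares given here are therefore descriptions only. Log2 fold changes are those of FPKM + 1, so for low genes they are smaller than the true change.

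**Figure D2:**
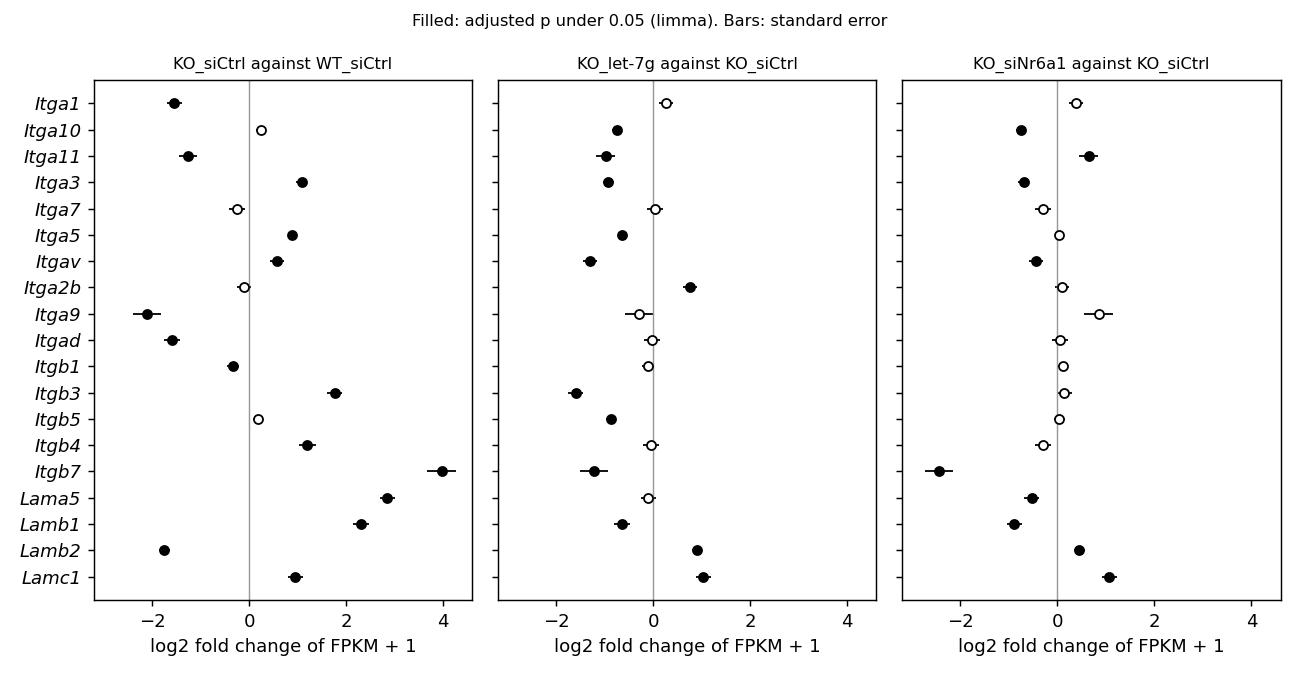
Log2 fold change of FPKM + 1 (horizontal axis, with standard error) of the expressed genes described here in KO_siCtrl against WT_siCtrl, KO_let-7g against KO_siCtrl and KO_siNr6a1 against KO_siCtrl. Filled points had an adjusted p under 0.05 by limma; Itgb7 lies farthest to the right in the first panel (3.97) and farthest to the left in the last (-2.44).

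Among the laminins, the alpha5, beta1 and gamma1 chains were the most abundant alpha, beta and gamma chains in KO_siCtrl and can form a trimer together. Lama5, the alpha chain of many mature basement membranes, stood at 2.97, 1.60 and 2.28 FPKM in WT_siCtrl and at 23.8, 19.2 and 24.3 in KO_siCtrl. In KO_let-7g it was 22.8, 18.5 and 21.1, and in KO_siNr6a1 17.0, 14.5 and 14.3. The WT_siCtrl libraries were therefore all far below the others, and the KO_siNr6a1 libraries lay below both other Dicer -/- groups. Lama5 was called higher in KO_siCtrl than in WT_siCtrl (log2 fold change 2.85 ± 0.15 SE, adjusted p = 8.63e-08 by limma). Against KO_siCtrl it did not pass the test in KO_let-7g (-0.10, adjusted p = 0.624) and was called lower in KO_siNr6a1 (-0.53, adjusted p = 0.0244). That last call was lost without KO_siCtrl replicate 0 or 2 or KO_siNr6a1 replicate 1 or 2 (adjusted p = 0.0756 to 0.0803), and under median of ratios scaling (0.0512).

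Lamb1 encodes the beta1 chain, the beta chain of most embryonic and vascular laminins. Its FPKM was 29.5, 19.0 and 20.5 in WT_siCtrl and 121, 102 and 127 in KO_siCtrl. It was 77.1, 64.9 and 80.5 in KO_let-7g and 69.1, 55.0 and 63.5 in KO_siNr6a1. Both treated groups thus lay between the 2 control groups without overlapping either. Lamb1 rose in KO_siCtrl against WT_siCtrl (2.31 ± 0.16, adjusted p = 5.29e-07 by limma) and fell against KO_siCtrl with let-7g (-0.64 ± 0.16, adjusted p = 0.00665) and with siNr6a1 (-0.88 ± 0.16, adjusted p = 0.00201).

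Lamb2 encodes the beta2 chain, which can take the place of beta1 in the trimer and is known from the kidney filter and the neuromuscular junction. Its values ran the other way, with 37.8, 41.6 and 45.7 FPKM in WT_siCtrl and 12, 11.1 and 12 in KO_siCtrl. They were 24, 23.4 and 20.8 in KO_let-7g and 14.9, 19.1 and 15.3 in KO_siNr6a1. No library of a group overlapped another group. Lamb2 fell in KO_siCtrl (-1.75 ± 0.11, adjusted p = 2.31e-07 by limma) and rose against KO_siCtrl with let-7g (0.90 ± 0.11, adjusted p = 6.31e-05) and with siNr6a1 (0.45 ± 0.11, adjusted p = 0.009). In mean FPKM, which is scaled to transcript length, Lamb2 at 41.7 ± 3.96 (SD, n = 3) lay above Lamb1 at 23.0 ± 5.68 in WT_siCtrl. In KO_siCtrl the order was turned, with Lamb1 at 116 ± 13 and Lamb2 at 11.7 ± 0.544.

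Lamc1 encodes gamma1, the gamma chain shared by most laminins. It stood at 23.7, 22.0 and 16.5 FPKM for WT_siCtrl, 48.1, 38.1 and 36.4 for KO_siCtrl, 97.0, 82.6 and 74.1 for KO_let-7g and 98.2, 83.3 and 78.0 for KO_siNr6a1. The treated groups overlapped each other and lay above both control groups. Lamc1 rose in KO_siCtrl against WT_siCtrl (0.95 ± 0.16, adjusted p = 0.000373 by limma) and rose further against KO_siCtrl with let-7g (1.03 ± 0.16, adjusted p = 0.000328) and with siNr6a1 (1.07 ± 0.16, adjusted p = 0.000612). Lamc1 thereby moved further from the WT_siCtrl level under both treatments, while Lamb1 and Lamb2 moved toward it.

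**Figure D3:**
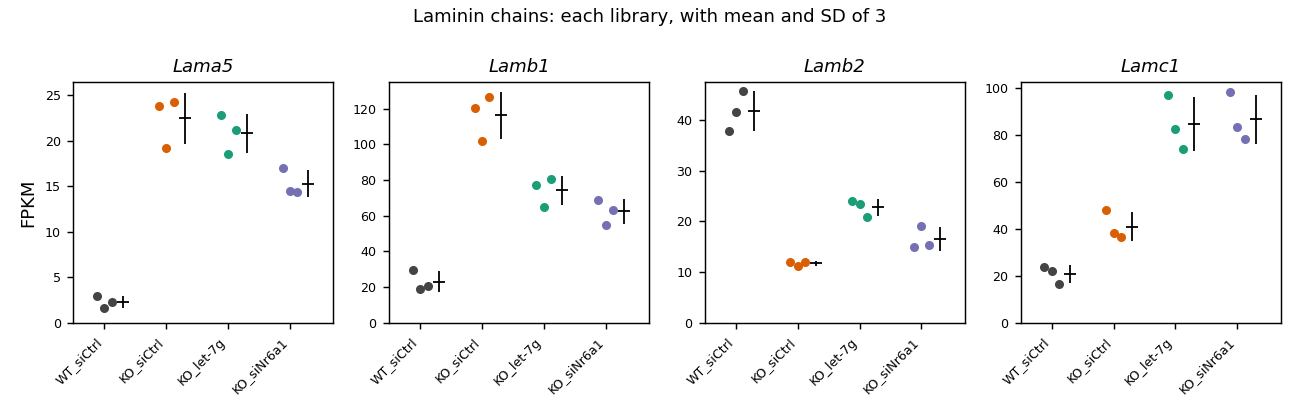
FPKM (vertical axis, from 0, a separate scale per gene) of Lama5, Lamb1, Lamb2 and Lamc1 in the 4 groups; points are libraries and the bar beside them is the mean with SD of 3. Lamb1 and Lamb2 run in opposite directions, and Lamc1 is highest in the 2 treated groups.

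The collagen-binding alpha subunits pair with Itgb1. Itga11, a receptor for fibrillar collagen typical of stromal fibroblasts, stood at 22.5, 19.1 and 23.4 FPKM in WT_siCtrl and at 7.92, 10.2 and 7.45 in KO_siCtrl. It was 4.38, 4.86 and 2.46 in KO_let-7g and 13, 16.1 and 12.4 in KO_siNr6a1, and no groups overlapped. Itga11 fell in KO_siCtrl against WT_siCtrl (-1.26 ± 0.19, adjusted p = 0.000212 by limma). The treatments went opposite ways from KO_siCtrl, with a fall in KO_let-7g (-0.98 ± 0.19, adjusted p = 0.00164) and a rise in KO_siNr6a1 (0.64 ± 0.19, adjusted p = 0.0268). The rise was no longer called without KO_siCtrl replicate 0 or 2 or KO_siNr6a1 replicate 0 or 1 (adjusted p = 0.0501 to 0.098) or with no filter (0.0584). Between the treatments Itga11 differed by -1.62 ± 0.19 (adjusted p = 0.000102) and kept its call in every setting run.

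Itga1, a receptor for collagen of basement membranes, stood at 3.76, 4.85 and 3.24 FPKM for WT_siCtrl, 0.754, 0.794 and 0.519 for KO_siCtrl, 1.25, 1.19 and 0.681 for KO_let-7g and 1.38, 1.23 and 1.01 for KO_siNr6a1. The WT_siCtrl libraries were the highest, KO_let-7g overlapped both other Dicer -/- groups, and Itga1 fell in KO_siCtrl (-1.54 ± 0.15, adjusted p = 7.68e-06 by limma). Against KO_siCtrl the values were 0.26 (adjusted p = 0.171) in KO_let-7g and 0.39 (adjusted p = 0.0741) in KO_siNr6a1, both called with the replicate block (adjusted p = 0.0397 and 0.0103). Itga10, a collagen receptor of cartilage, had group means of 1.28 ± 0.274 FPKM (SD, n = 3) for WT_siCtrl, 1.71 ± 0.193 for KO_siCtrl, 0.605 ± 0.0562 for KO_let-7g and 0.614 ± 0.0371 for KO_siNr6a1. It reached 1 FPKM in 3 KO_siCtrl and 2 WT_siCtrl libraries and in no treated one, so it passed the filter through the control groups, where it is higher, and its lower calls against KO_siCtrl are descriptions (-0.75 ± 0.10, adjusted p = 0.000169, and -0.74 ± 0.10, adjusted p = 0.00045, by limma, with let-7g and with siNr6a1). In KO_siCtrl against WT_siCtrl its value was 0.25 (adjusted p = 0.0578), called with the replicate block (adjusted p = 0.0319). The fourth collagen receptor, Itga2, reached at most 0.348 FPKM.

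Of the laminin-binding alpha subunits, Itga3, the receptor for laminins with the alpha5 or alpha3 chain, was the most abundant. It stood at 45.9, 37.0 and 48.8 FPKM for WT_siCtrl, 87.4, 86.0 and 110.1 for KO_siCtrl, 48.0, 48.3 and 50.8 for KO_let-7g and 55.4, 57.7 and 59.9 for KO_siNr6a1. The KO_siCtrl libraries were higher than all others, and KO_let-7g overlapped WT_siCtrl. Itga3 rose in KO_siCtrl (1.09 ± 0.11, adjusted p = 1.43e-05 by limma) and fell against it with let-7g (-0.92 ± 0.11, adjusted p = 8.37e-05) and with siNr6a1 (-0.69 ± 0.11, adjusted p = 0.00123). KO_let-7g differed from KO_siNr6a1 by -0.23 (adjusted p = 0.131, and 0.041 with the replicate block). Itga7, a laminin receptor of muscle, had means of 4.79 to 7.53 FPKM in the 4 groups and was called only between KO_siNr6a1 and WT_siCtrl (-0.53, adjusted p = 0.0164). Without WT_siCtrl replicate 2 it was lost (adjusted p = 0.0545), as it was without KO_siNr6a1 replicate 2 (0.0613) or with only these 2 groups in the fit (0.0548). Itgb1, the beta subunit shared by most matrix receptors, was the most abundant of the 37 genes in every library, at 467, 424 and 365 FPKM for WT_siCtrl, 350, 361 and 288 for KO_siCtrl, 319, 340 and 270 for KO_let-7g and 373, 349 and 349 for KO_siNr6a1. Its lower call in KO_siCtrl (-0.33, adjusted p = 0.0389) was lost under quantile scaling (-0.13, adjusted p = 0.465), with no filter (0.0668) and with only these 2 groups in the fit (0.0784). It was also lost without WT_siCtrl replicate 0 or 1, KO_siCtrl replicate 0 or 2, KO_let-7g replicate 0 or KO_siNr6a1 replicate 2 (adjusted p = 0.0507 to 0.152).

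The receptors of RGD proteins came next. Itgb3, the beta subunit of the vitronectin receptor, stood at 0.703, 0.396 and 0.577 FPKM in WT_siCtrl and at 5.06, 4.37 and 3.55 in KO_siCtrl. With let-7g it was 0.786, 1.02 and 0.476, and with siNr6a1 5.32, 5.39 and 3.94. KO_let-7g overlapped WT_siCtrl, and KO_siNr6a1 overlapped KO_siCtrl. Itgb3 rose in KO_siCtrl (1.77 ± 0.16, adjusted p = 3.86e-06 by limma) and fell in KO_let-7g against KO_siCtrl (-1.60 ± 0.16, adjusted p = 1.91e-05). In KO_siNr6a1 the change was 0.14 ± 0.16 (adjusted p = 0.529), and the treatments differed by -1.74 ± 0.16 (adjusted p = 2.13e-05). Itgb3 reached 1 FPKM in 7 libraries, none of them of WT_siCtrl and only replicate 1 of KO_let-7g. It thus passed the filter through the groups where it is high, and its calls are descriptions. A site in its 3′ UTR is printed above, and whether that site is used was not tested.

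Itgav, the alpha partner of Itgb3 and Itgb5, stood at 62.8, 52.0 and 45 FPKM for WT_siCtrl, 81.5, 89.7 and 67.4 for KO_siCtrl, 32.2, 36.0 and 26.2 for KO_let-7g and 60.2, 58.7 and 54.6 for KO_siNr6a1. The KO_let-7g libraries were lower than all others. Itgav rose in KO_siCtrl (0.57 ± 0.15, adjusted p = 0.00635 by limma) and fell in KO_let-7g against KO_siCtrl (-1.31 ± 0.15, adjusted p = 4.22e-05). Its lower call in KO_siNr6a1 (-0.44, adjusted p = 0.0408) was lost without any of 7 libraries: WT_siCtrl replicate 1, KO_siCtrl replicate 0 or 1, KO_let-7g replicate 0, or KO_siNr6a1 replicate 0, 1 or 2 (adjusted p = 0.0535 to 0.138). It was also lost with no filter (0.0796), under quantile scaling (0.0657) and under median of ratios scaling (0.0932). Itgb5, another beta partner of Itgav, stood at 91.8, 82.8 and 101.5 FPKM for WT_siCtrl, 106.6, 104.4 and 102.5 for KO_siCtrl, 63.7, 58.5 and 49.2 for KO_let-7g and 111.1, 114.3 and 98.1 for KO_siNr6a1. Again the KO_let-7g libraries were the lowest. Itgb5 was not called in KO_siCtrl against WT_siCtrl (0.19, adjusted p = 0.158), fell in KO_let-7g against KO_siCtrl (-0.87 ± 0.11, adjusted p = 7.26e-05), and was 0.04 (adjusted p = 0.801) in KO_siNr6a1.

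Itga5, the alpha subunit of the fibronectin receptor, was the most abundant alpha subunit of each group. It stood at 77.1, 64.8 and 70.0 FPKM for WT_siCtrl, 126.4, 129.4 and 134.8 for KO_siCtrl, 85.3, 85.7 and 78.3 for KO_let-7g and 131.4, 136.3 and 133.5 for KO_siNr6a1. KO_siCtrl and KO_siNr6a1 overlapped and stood above the other groups. Itga5 rose in KO_siCtrl (0.88 ± 0.07, adjusted p = 2.62e-06 by limma) and fell in KO_let-7g against KO_siCtrl (-0.64 ± 0.07, adjusted p = 5.15e-05), with 0.04 (adjusted p = 0.735) in KO_siNr6a1. Neither Itga5 nor Itgb5 held TACCTC in the 3′ UTR searched. Itga2b, the platelet partner of Itgb3, was low, with means of 0.918 ± 0.41 FPKM (SD, n = 3) for WT_siCtrl, 0.746 ± 0.00898 for KO_siCtrl, 1.97 ± 0.274 for KO_let-7g and 0.868 ± 0.13 for KO_siNr6a1. It reached 1 FPKM in all 3 KO_let-7g libraries and in 1 other library, so it passed the filter only through the group where it is high. Its higher call in KO_let-7g against KO_siCtrl (0.76 ± 0.14, adjusted p = 0.00142 by limma) is therefore a description, as for Itgad below. The remaining RGD subunits Itga8, Itgb6 and Itgb8 reached at most 0.203, 0.0461 and 0.486 FPKM.

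**Figure D4:**
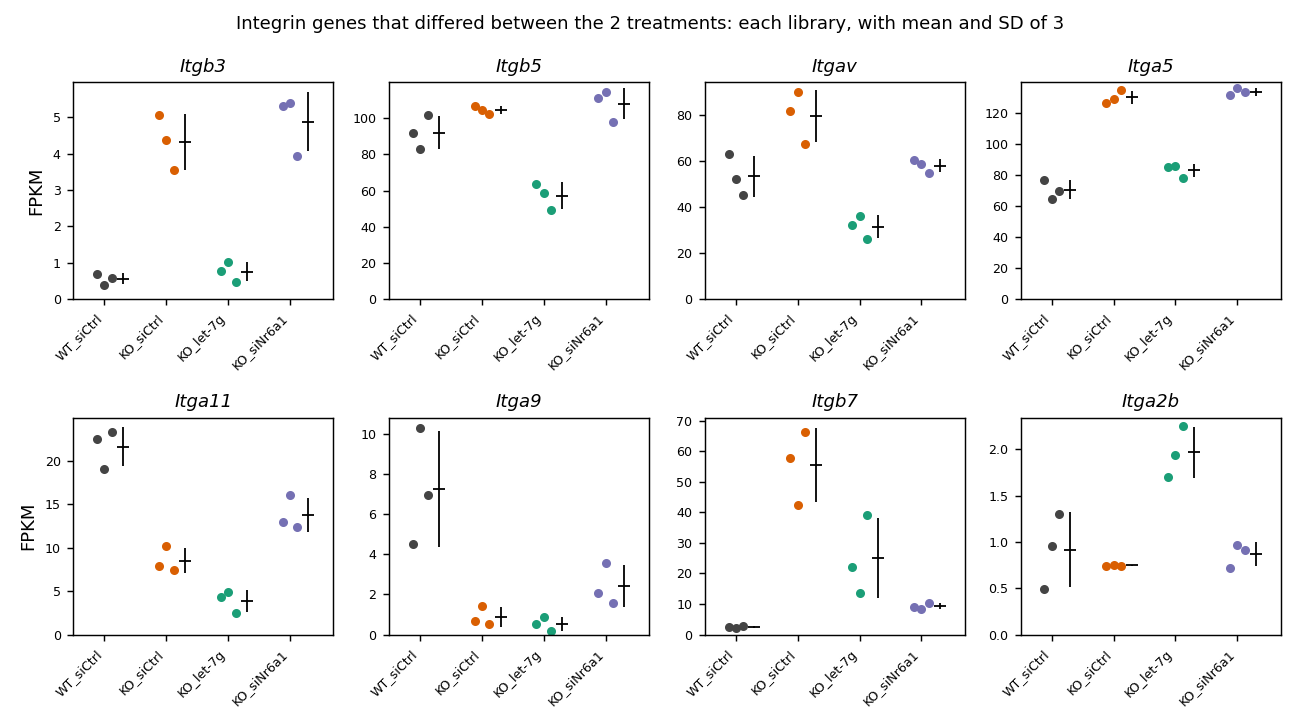
FPKM (vertical axis, from 0, a separate scale per gene) of the 8 integrin genes called between KO_let-7g and KO_siNr6a1, in the 4 groups; points are libraries and the bar beside them is the mean with SD of 3. Itgb3, Itgb5, Itgav, Itga5, Itga11 and Itga9 are lower in KO_let-7g than in KO_siNr6a1, and Itgb7 and Itga2b are higher.

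Itga9, a receptor for tenascin, osteopontin and Vcam1, stood at 4.53, 10.3 and 6.94 FPKM for WT_siCtrl, 0.693, 1.44 and 0.506 for KO_siCtrl, 0.521, 0.883 and 0.191 for KO_let-7g and 2.07, 3.58 and 1.59 for KO_siNr6a1. The WT_siCtrl libraries were the highest and the KO_siNr6a1 libraries came next. Itga9 fell in KO_siCtrl (-2.11 ± 0.30, adjusted p = 0.000122 by limma). In KO_siNr6a1 against KO_siCtrl it was 0.85 ± 0.30 with an adjusted p of 0.051, and was called in 11 of the 23 other settings that tested it, among them the replicate block (adjusted p = 0.00197). In each group replicate 1 was the highest library.

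On the log2(FPKM + 1) scale the largest difference of the 20 genes was that of Itgb7, a beta subunit known from lymphocytes that home to the gut. It stood at 2.57, 2.18 and 2.95 FPKM in WT_siCtrl and at 57.7, 42.4 and 66.4 in KO_siCtrl. It was 21.95, 13.6 and 39.25 in KO_let-7g and 9.18, 8.27 and 10.3 in KO_siNr6a1. No groups overlapped. Itgb7 rose in KO_siCtrl (3.97 ± 0.29, adjusted p = 9.84e-07 by limma), 21.6 times the WT_siCtrl mean. It fell against KO_siCtrl with let-7g (-1.22 ± 0.29, adjusted p = 0.00577) and with siNr6a1 (-2.44 ± 0.29, adjusted p = 0.000192), and was lower with siNr6a1 than with let-7g (1.22 ± 0.29 for let-7g against siNr6a1, adjusted p = 0.00693). Of the 8 integrin genes called between the treatments, Itgb7 and Itgav fell with both agents, and of these Itgb7 was the lower one with siNr6a1.

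Several subunits were expressed without a partner at a like level. Itgb7 is known to pair with Itga4 and Itgae, and these reached at most 0.0142 and 0.536 FPKM in any library. Itgb4, the beta subunit of epithelial hemidesmosomes, pairs with Itga6. Itgb4 stood at 0.195, 0.174 and 0.424 FPKM for WT_siCtrl, 1.55, 2.05 and 2.14 for KO_siCtrl, 1.84, 2.43 and 1.24 for KO_let-7g and 1.62, 1.54 and 1.0 for KO_siNr6a1. It rose in KO_siCtrl (1.2 ± 0.17, adjusted p = 0.000116 by limma) and was not called in either treatment against KO_siCtrl. Itgb4 reached 1 FPKM in 9 libraries, none of them of WT_siCtrl. It passed the filter only through the groups where it is high, so this higher call is a description. Itga6 reached at most 0.532 FPKM and ran the other way, at 0.388 to 0.532 in WT_siCtrl and 0.0665 to 0.0917 in KO_siCtrl, with no test.

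Itgad, an alpha subunit of white blood cells that pairs with Itgb2, stood at 1.26, 2.34 and 3.02 FPKM in WT_siCtrl and at 0.0884 or less in each Dicer -/- library. It passed the filter through WT_siCtrl alone, so its lower call in KO_siCtrl (-1.60 ± 0.17, adjusted p = 1.3e-05 by limma) is that of a gene that had to differ. Its partner Itgb2 was at 0.275 to 0.407 FPKM in WT_siCtrl and at 0.587 to 0.681 in KO_siCtrl. The annotation (GRCm38) places 70 exon bases of Cox6a2 opposite Itgad, and no source used here says whether counting was by strand. It also places 388 bases of 4931431B13Rik and 102 of Gm39091 opposite Itgad, and 330 of Gm17831 on its strand. Of these only Cox6a2 is in the expression table. Other expressed members share exon bases on the same strand (Itga10 1739, Itga1 685) or the opposite one (Itgav 634, Itgb4 537, Itga7 9). Cox6a2 stood at 0.370 to 1.07 FPKM in WT_siCtrl and at 3.39 to 6.08 in KO_let-7g, where Itgad was at 0.0354 or listed at 0. The summed level of 9 white blood cell markers was 9.66 to 17.0 FPKM for WT_siCtrl, 29.9 to 41.8 for KO_siCtrl, 21.4 to 35.5 for KO_let-7g and 45.4 to 64.8 for KO_siNr6a1. Of these 9, Cd74 and Cd68 reached 1 FPKM in each group and no other did, and Itgb7 was highest in KO_siCtrl while this sum was highest in KO_siNr6a1. The part of such cells or of reads from Cox6a2 and the other overlapping genes in these values was not tested.

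**Figure D5:**
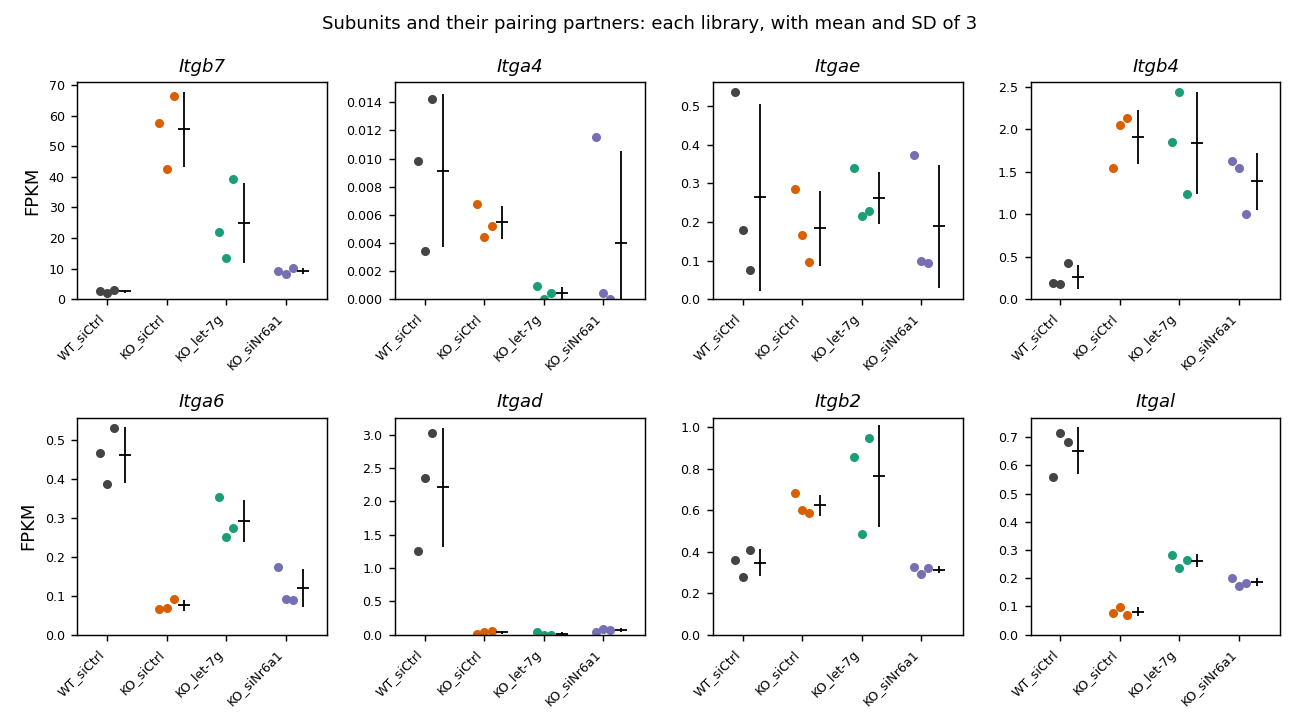
FPKM (vertical axis, from 0, a separate scale per gene) of Itgb7 with its partners Itga4 and Itgae, of Itgb4 with its partner Itga6, and of Itgad and Itgal with their partner Itgb2, in the 4 groups; points are libraries and the bar beside them is the mean with SD of 3. Itgb7 reaches 66.4 while Itga4 reaches at most 0.0142 and Itgae at most 0.536.

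The comparisons of KO_let-7g and KO_siNr6a1 with KO_siCtrl ask what each agent changes in Dicer -/- cells, and they share the KO_siCtrl libraries. In KO_let-7g, 4 of the 20 genes rose, among them Lamb2, Lamc1 and Itga2b, and 9 fell, 8 of them integrins, beside 45.6% of all genes called (27.5% higher and 18.2% lower). Library values did not overlap in 13 of the 20, beside 55.4% of all genes. The median of the 20 was -0.20 beside 0.08 over all genes. Of all calls there 60.2% were higher, against 49.3% under median of ratios and 49.9% under quantile scaling. In KO_siNr6a1, 3 rose (Lamb2, Lamc1 and Itga11) and 6 fell (Itga3, Itga10, Itgav, Itgb7, Lama5 and Lamb1), beside 29.4% of all genes (13.2% higher and 16.3% lower), with a median of 0.04 beside -0.06. Library values did not overlap in 11 of the 20, beside 46.1% of all genes. This split of 3 and 6 was 5 and 5 under quantile scaling and 4 and 4 under median of ratios scaling, where the higher share of all calls went from 44.8% to 56.3%.

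The direct comparison of KO_let-7g with KO_siNr6a1 tests whether the agents differ. Of the 20, 4 were higher in KO_let-7g (Itga2b, Itgb7, Lama5 and Lamb2) and 6 lower (Itga5, Itga9, Itga11, Itgav, Itgb3 and Itgb5), beside 40.9% of all genes called (27.6% higher and 13.3% lower), and values did not overlap in 14 of the 20, beside 55.4% of all genes. Under median of ratios scaling the split of the 20 was 3 and 8, the median of all genes moved by -0.14, and the higher share of all calls went from 67.6% to 45.1% (51.9% under quantile scaling). Lamb2 was 0.45 ± 0.11 higher (adjusted p = 0.0065 by limma). The Lama5 difference (0.42, adjusted p = 0.0455) was lost in 13 of 24 settings, 7 of them without WT_siCtrl replicate 2, KO_siCtrl replicate 0 or 2, KO_let-7g replicate 0 or 2, or KO_siNr6a1 replicate 1 or 2 (adjusted p = 0.052 to 0.139). Lamb1 and Lamc1 were not called (0.24 and -0.035, adjusted p = 0.245 and 0.883), nor was Itgb1 (-0.21, adjusted p = 0.187, and 0.0355 with the replicate block).

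Against WT_siCtrl, 8 of the 20 were higher and 9 lower in KO_let-7g (58.2% of all genes called, 35.3% higher and 22.8% lower). Against the same libraries, 9 were higher and 7 lower in KO_siNr6a1 (54.3%, with 27% higher and 27.4% lower). Library values did not overlap with WT_siCtrl in 17 and 16 of the 20, beside 60.9% and 59.1% of all genes. For KO_let-7g the higher share of all calls went from 60.7% to 47.9% under median of ratios scaling. Itga3 and Itgb3 were called in KO_siCtrl and not in KO_let-7g against WT_siCtrl (0.17, adjusted p = 0.235, and 0.17, adjusted p = 0.378, by limma), and the call of Itga5 there (0.23, adjusted p = 0.0177) was lost under each other scaling run (adjusted p = 0.081 to 0.326), with only these 2 groups in the fit (0.0756) and without WT_siCtrl replicate 1 or KO_let-7g replicate 0 or 1 (adjusted p = 0.0604 to 0.0772). Itgav and Itgb5 lay below WT_siCtrl in KO_let-7g (-0.74 ± 0.15, adjusted p = 0.00122, and -0.68 ± 0.11, adjusted p = 0.000225). In KO_siNr6a1 Itgb3 stayed above WT_siCtrl (1.91 ± 0.16, adjusted p = 2.09e-06) and so did Itga5 (0.92 ± 0.07, adjusted p = 1.9e-06), Itgb7 (1.52 ± 0.29, adjusted p = 0.00111) and Itga3 (0.40 ± 0.11, adjusted p = 0.0123, and 0.0521 without WT_siCtrl replicate 1). Lama5, Lamb1 and Lamc1 were above WT_siCtrl in both treated groups by 1.42 to 2.75, and Lamb2 was below it by 0.84 in KO_let-7g and 1.29 in KO_siNr6a1 (both called).

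The other genes of cell-matrix adhesion were read from 4 lists, whose counts stand beside 54.3% of all genes called in KO_siCtrl against WT_siCtrl, 45.6% in KO_let-7g against KO_siCtrl and 29.4% in KO_siNr6a1 against KO_siCtrl. Of the focal adhesion adaptors, which join integrin tails to actin, 8 of 33 tested rose and 17 fell in KO_siCtrl (median -0.27 beside 0.04 over all genes). In KO_let-7g against KO_siCtrl 7 rose and 8 fell, and in KO_siNr6a1 8 rose and 2 fell (75.8%, 45.5% and 30.3% called in these comparisons). Sorbs3 (vinexin) fell in KO_siCtrl (-1.63 ± 0.09, adjusted p = 1.22e-07 by limma) and rose against it with let-7g (2.11 ± 0.09, adjusted p = 3.22e-07) and with siNr6a1 (0.93 ± 0.09, adjusted p = 6.1e-05). Tgfb1i1 (Hic-5) did likewise (-1.77, then 1.51 and 1.27, adjusted p at most 9.04e-05). The scaffold paxillin, Pxn, rose in KO_siCtrl (1.03 ± 0.09, adjusted p = 4.51e-06), and the kinase Ptk2b fell (-2.04 ± 0.14, adjusted p = 4.61e-07).

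Of the basement membrane partners of laminin, 4 of 17 tested rose and 8 fell in KO_siCtrl (median -0.21). In KO_let-7g 5 rose and 2 fell, and in KO_siNr6a1 only 1 of the 17 passed the test (70.6%, 41.2% and 5.88% called in these comparisons). It was Agrn, which fell (-0.51 ± 0.11, adjusted p = 0.00685 by limma), a proteoglycan that binds laminin. Nid1, which links laminin to collagen IV, rose in KO_siCtrl (0.67 ± 0.10, adjusted p = 0.000169), as did Col18a1 (1.46 ± 0.14, adjusted p = 9.51e-06) and Bcam, a surface receptor of laminin alpha5 (0.69 ± 0.09, adjusted p = 9.18e-05). Mean FPKM of Bcam was 0.136 in WT_siCtrl and 0.836 in KO_siCtrl, both under 1, so this higher call is a description. It was 2.06 in KO_let-7g (0.73 ± 0.09 against KO_siCtrl, adjusted p = 0.000102 by limma) and 1.04 in KO_siNr6a1. Col15a1 fell in KO_siCtrl (-1.80 ± 0.26, adjusted p = 0.000136). Nid2 fell in KO_let-7g against KO_siCtrl (-1.12 ± 0.16, adjusted p = 0.000202).

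Of the integrin ligands outside the laminins, 5 of 18 tested rose and 9 fell in KO_siCtrl (median -0.37). In KO_let-7g 1 rose and 5 fell, and in KO_siNr6a1 6 rose and 1 fell (77.8%, 33.3% and 38.9% called in these comparisons). The falls in KO_siCtrl with the smallest adjusted p were those of Postn (-6.16 ± 0.42), Tnc (-5.74 ± 0.24), which binds Itga9, Ibsp (-4.13 ± 0.26) and the collagen gene Col1a2 (-2.28 ± 0.08), with adjusted p at most 5.09e-07 by limma. Mean FPKM of Ibsp was 18.8 in WT_siCtrl and at most 0.138 in the Dicer -/- groups. Ibsp passed the filter through WT_siCtrl alone, so its lower call is a description. Thbs1, a ligand of several integrins, was 425.5 ± 12.1 FPKM (SD, n = 3) for KO_siCtrl, 154.6 ± 26.3 for KO_let-7g and 619.6 ± 67.4 for KO_siNr6a1, a fall (-1.47 ± 0.17, adjusted p = 5.45e-05 by limma) and a rise (0.54 ± 0.17, adjusted p = 0.0355). Spp1 (osteopontin), the most abundant ligand named here, rose in KO_siCtrl (0.75 ± 0.13, adjusted p = 0.000516) and fell against it in both treatments (-0.43, adjusted p = 0.0178, and -0.70, adjusted p = 0.00246). Of the lateral partners in the membrane, such as tetraspanins and syndecans, 6 of 11 tested rose and 2 fell in KO_siCtrl (median 0.36), 5 rose and 2 fell in KO_let-7g, and 1 rose and 2 fell in KO_siNr6a1 (72.7%, 63.6% and 27.3% called in these comparisons). Sdc4 rose in KO_siCtrl (1.09 ± 0.12, adjusted p = 1.54e-05), the tetraspanins Cd63 and Cd9 fell (-0.94 and -0.86, adjusted p = 2.54e-05 and 0.000104), the urokinase receptor Plaur rose (0.95 ± 0.12, adjusted p = 6.16e-05) and fell with let-7g (-1.05 ± 0.12, adjusted p = 5.37e-05), and Cav1 rose in KO_let-7g against KO_siCtrl (1.29 ± 0.17, adjusted p = 0.000115).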

How the data were processed

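The deposited table holds FPKM values for 21881 genes in 12 libraries, made by the authors with TopHat 1.2.0, Cufflinks 1.0.3 and mouse build mm9, per the submitters' processing notes. FPKM is relative to the rest of the library, so abundant genes that change can move others. Fewer cells of a type and less RNA per cell cannot be told apart.

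Sample titles gave groups and replicate numbers. The 11801 genes that reached 1 FPKM in 3 or more libraries entered a limma 3.58.1 fit (R 4.3.3) of log2(FPKM + 1), with a mean per group over all 12 libraries, 8 residual degrees of freedom and a trended variance. Tests were two-sided, with Benjamini-Hochberg adjustment across the genes tested in each comparison. The code was tested on simulated data. Libraries with the same number deviated together (correlations of 0.127 to 0.465 in 5 of 6 comparisons, lowest 0.0915 in KO_siNr6a1 against WT_siCtrl). Each of the 12 libraries correlated best on average with libraries of its own number in the other groups. No label states this pairing, which was read from the data. The fit has no replicate block, and blocked values stand where they change a call of an integrin or laminin gene. Calls of genes in the other lists were not read with the block or under the other settings.

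The genes, lists and rules were chosen with earlier results of these data known. Values of every library are given for genes called somewhere with an absolute log2 fold change of at least 1, and for Itga5, Itgb1 and Itgb5, which were added after their values were seen. Some genes enter the counts but are not reported here by name. From each other list, up to 4 genes with the smallest adjusted p in KO_siCtrl against WT_siCtrl and up to 2 in each treatment were named. Alternatives covered pseudocount, filter, scaling, variance model, library weights, replicate block and each library left out.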

Additional observations from a re-analysis of the deposited data

Results flagged for a closer look

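Of the 20 expressed integrin and laminin genes, 10 differed between the treatments of Dicer -/- cells by the direct test of KO_let-7g against KO_siNr6a1 in limma, on the log2(FPKM + 1) scale. They were lower with let-7g for Itgb3 (-1.74), Itga11 (-1.62), Itga9 (-1.14), Itgb5 (-0.91), Itgav (-0.87) and Itga5 (-0.68). They were higher with let-7g for Itgb7 (1.22), Itga2b (0.67), Lamb2 (0.45) and Lama5 (0.42). Itga2b reached 1 FPKM in the 3 KO_let-7g libraries and in 1 other, so it entered the test only through the group where it is high. Itgb3 and Itga9 each reached it in 7 libraries. Of KO_let-7g only replicate 1 was among these for Itgb3, and none for Itga9. Both thus entered the test mainly through groups where they are high. Adjusted p was 2.13e-05 for Itgb3 and at most 0.0103 for the others, except Lama5 (0.0455). Among all genes 40.9% were called in this comparison.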

How the results depend on the processing

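Across 24 other settings, 70 of the 81 calls among 120 pairs of gene and comparison kept their direction and their side of the threshold in every setting that tested the gene, 11 were lost in at least 1, and no call turned its direction. Of the 39 pairs not called, 14 were called in at least 1 setting. With a mean FPKM of at least 5 required, 10 genes were called in KO_siCtrl against WT_siCtrl, 10 in KO_let-7g against WT_siCtrl and 9 in KO_siNr6a1 against WT_siCtrl, since only 12 of the 20 genes were then tested. With the replicate block, 17, 14, 11, 12, 17 and 17 of the 20 were called, where the fit without it called 16, 13, 9, 10, 17 and 16, in the order KO_siCtrl against WT_siCtrl, both treatments against KO_siCtrl, KO_let-7g against KO_siNr6a1, and KO_let-7g and KO_siNr6a1 against WT_siCtrl. Beside the calls given with the results, the block added Itgb1 in KO_siNr6a1 against WT_siCtrl (adjusted p = 0.0245). Leaving out 1 library at a time gave 14 to 17, 12 to 13, 6 to 10, 9 to 10, 15 to 17 and 14 to 16 calls in the same order.

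The sign turned only in pairs that were not called. Under library weights the log2 differences were 0.062 for Itgb4 in KO_let-7g against KO_siCtrl, -0.11 for Itgb3 and -0.067 for Itgb5 in KO_siNr6a1 against KO_siCtrl, 0.048 for Itga1, 0.00050 for Itga10 and 0.13 for Lamc1 in KO_let-7g against KO_siNr6a1, and 0.019 for Itga7 in KO_let-7g against WT_siCtrl. Under quantile scaling they were 0.051 for Itga2b in KO_siCtrl and 0.19 in KO_siNr6a1 against WT_siCtrl, and -0.11 for Itga7 in KO_let-7g against KO_siCtrl, with -0.044 under median of ratios scaling. With a pseudocount of 0.1 Itga2b was 0.0060 in KO_siNr6a1 against WT_siCtrl. Leaving out 1 library gave ranges of -0.28 to 0.032 and -0.19 to 0.13 for those Itga2b pairs, -0.045 to 0.098 for Itga7 and -0.20 to 0.11 for Itgb4 in KO_let-7g against KO_siCtrl, and -0.00095 to 0.11 for Itgb5 in KO_siNr6a1 against KO_siCtrl. In KO_let-7g against KO_siNr6a1 they were -0.20 to 0.013 for Itga1, -0.037 to 0.0097 for Itga10 and -0.14 to 0.059 for Lamc1. The cause was not tested. Read totals are unknown, so no counting error is given for low genes.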

Other observations

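Some of the 17 genes that never reached 1 FPKM had library values that did not overlap between WT_siCtrl and KO_siCtrl. Among all genes tested 57.2% did not overlap in this comparison. Lama1, Lama4 and Itgal are given as values with no test. Itga2, Itga6, Itga8, Itgax, Itgb2 and Lamc3 did not overlap either. Lama1, the alpha chain of early embryonic basement membrane, stood at 0.0219 to 0.037 FPKM in WT_siCtrl and 0.492 to 0.671 in KO_siCtrl, with 0.188 to 0.257 in KO_let-7g and 0.499 to 0.631 in KO_siNr6a1. Lama4, the alpha chain of mesenchymal and vascular laminin, ran the other way, at 0.699 to 0.87 FPKM in WT_siCtrl and 0.0275 to 0.124 in KO_siCtrl. Itgal, a white blood cell subunit, stood at 0.558 to 0.715 FPKM in WT_siCtrl, 0.0681 to 0.0982 in KO_siCtrl, 0.236 to 0.282 in KO_let-7g and 0.172 to 0.201 in KO_siNr6a1. Lama5 was the only laminin alpha chain above 1 FPKM in any library, and Lama3 and Lamb3 reached at most 0.155 and 0.376.

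Outside the 20 tested genes, 4 others held CTACCTC in the longest 3′ UTR. Itga2 had the longer match CTACCTCA at base 2225 of 3404. Its values were 0.0698 to 0.144 FPKM in KO_siCtrl and 0.0584 to 0.137 in KO_let-7g, too low to test.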
